A study of Mus musculus with 7 samples.

Results

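Megakaryocyte and platelet genes were described in 7 RNA-sequencing libraries of a mouse erythroid line. The 9 genes were chosen by name: the integrin chains Itgb3 and Itga2b, the glycoprotein receptor chains Gp1ba, Gp1bb, Gp5 and Gp9, the granule gene Nbeal2, and the secreted granule proteins Pf4 and Vwf. All 9 matched 1 row each among 55367 gene symbols. Of these, 7 had a value above 0 in at least 1 library, and Gp1bb and Vwf were listed at 0 in every library.

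The cells were G1E-ER4, a clonal mouse line made from erythroid progenitors that lack GATA1 and carry GATA1 fused to the ligand-binding part of the estrogen receptor. Estradiol activates the fusion protein and starts maturation, so every group shares the loss of the native factor and the introduced gene. The group at 0 h was 1 library of undifferentiated cells without estradiol or DTPA. The control group was 3 libraries after 24 h with 100 nM β-estradiol, and the DTPA group was 3 libraries after 24 h with the same estradiol and 50 µM DTPA, a metal chelator used here to restrict zinc. All cells grew with erythropoietin and Kit ligand. The labels call the replicates biological and do not say more, so p-values measure the spread between these libraries.

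Megakaryocytes, the cells that shed platelets, arise from a progenitor that also gives rise to red cells, and GATA1 works in both lineages. Platelets stick to damaged vessels through the GPIb-IX-V complex, which binds von Willebrand factor, and to each other through the integrin αIIbβ3, which binds fibrinogen. Their alpha granules store adhesive proteins and chemokines. Immature blood cells can carry low levels of these transcripts before a lineage is fixed.

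Values are TPM, transcript levels scaled by gene length and to the same total in each library. Estimated depth was 17.6 to 21.2 M reads assigned to genes per library, and 10904 to 11268 genes reached 1 TPM. Read numbers given below were estimated from the TPM and GENCODE M21 exon lengths. They show how few reads stand behind the lower values. Libraries of the same group correlated at 0.988 to 0.990 across genes, and none stood apart. Of 10 erythroid markers, all were detected in every group, and their summed level was 10271 TPM at 0 h, 52144 to 56335 TPM in the controls and 62789 to 80979 TPM with DTPA. In these bulk samples, fewer cells of a type and less RNA per cell cannot be told apart.

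The members followed different courses, although all 7 detected ones had a higher value at 0 h than the control mean. For Gp9 this was only 1.34 against 1.01 TPM, and control replicate 1 (1.49 TPM) lay above the 0 h library. At 24 h, Itgb3, Gp1ba, Nbeal2 and Gp9 were higher with DTPA than in the controls, while Gp5 was near 0 in both. Against 0 h, DTPA left Itgb3 above its starting level, Gp1ba within the error of it, Nbeal2 below it, and Itga2b, Pf4 and Gp5 far below it. The plot of member levels by library shows these courses.

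**Figure D1:**
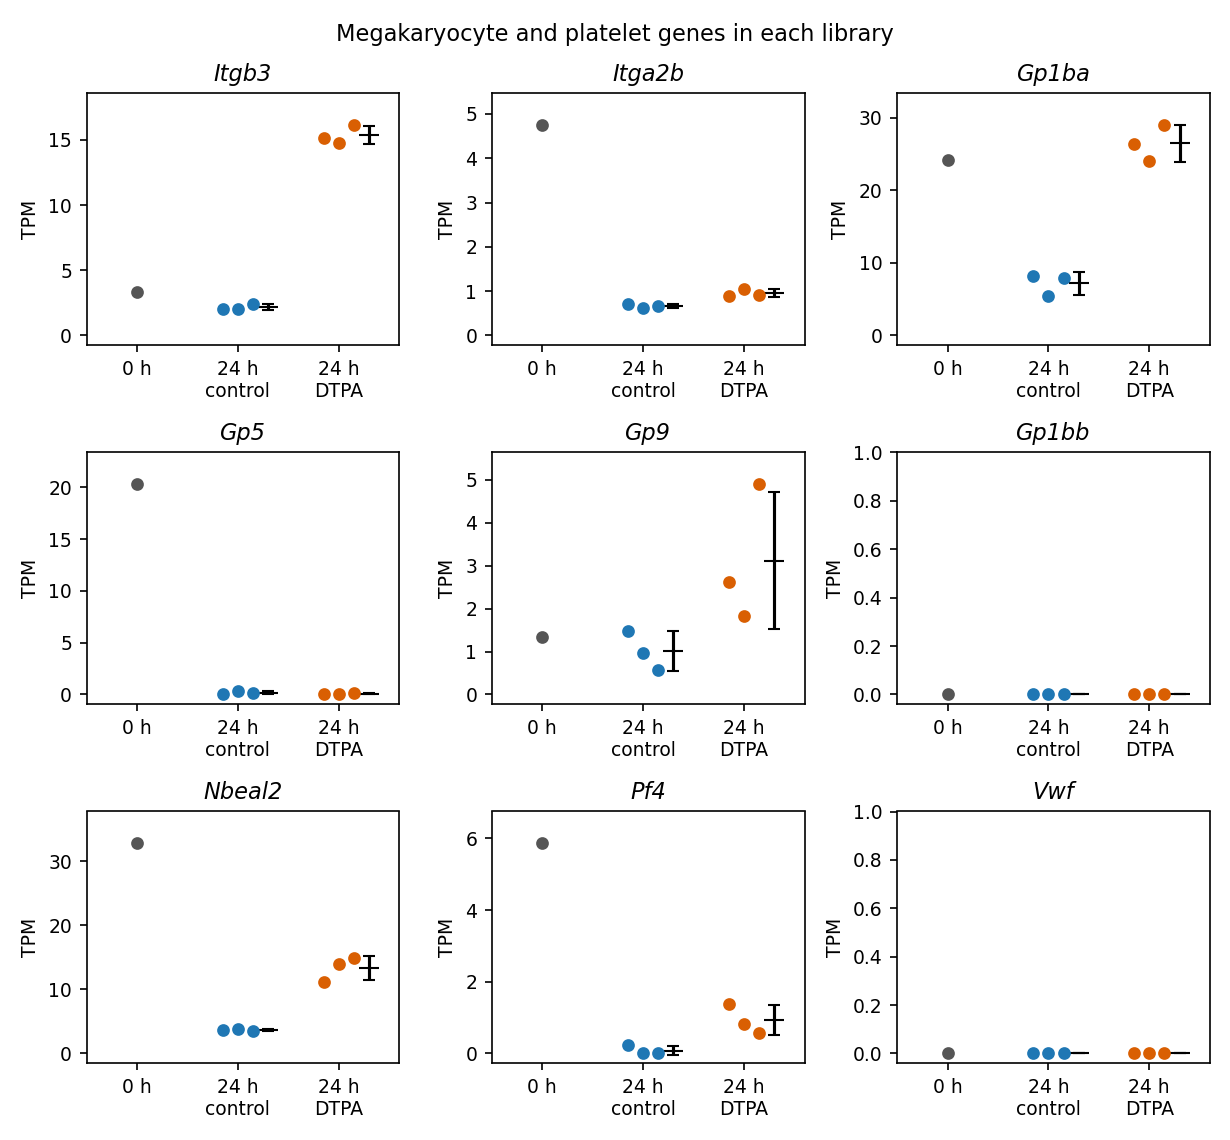
Level of each of the 9 genes in TPM (vertical axis, linear, a scale of its own in each panel) at 0 h (1 library), in the 24 h controls and with DTPA (3 libraries each). Points are libraries, and black marks are the mean with the SD of the 3 libraries. Itgb3 with DTPA lay at 14.76 to 16.13 TPM, above all other libraries, whereas Gp5 was at 20.33 TPM at 0 h and at most 0.31 TPM afterwards.

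Tests were made with limma on log2(TPM + 1) over all genes that passed a filter on low values, with Benjamini-Hochberg adjustment over those genes and a threshold of 0.05. For DTPA against control, a gene needed at least 1 TPM in at least 3 of the 6 libraries. Of the 9 members, 4 were tested and all 4 rose, where 58.1% of the 11147 genes tested changed, 21.7% up and 36.4% down. For each of these 4, no DTPA library overlapped a control library, which held for 65% of all genes tested, 24.7% higher and 40.3% lower with DTPA. The split over all genes depended on scaling, with 2415 genes higher and 4059 lower on the deposited scale, and 3189 and 3186 with median-of-ratios scaling. The 4 members rose under both, and the exact permutation test of each gave p = 0.1, the smallest p that 3 against 3 libraries allow. Itgb3, Gp1ba and Nbeal2 reached 1 TPM in every library of both groups. Gp9 would have passed through its DTPA libraries alone, so the count of 4 says nothing about the members below the filter.

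Against 0 h, a gene needed a mean of at least 1 TPM in either group, and a call also needed a change of at least 2-fold. Of 7 members tested in the controls against 0 h, 5 fell, where 39.4% of 11906 genes changed, 24.3% down and 15.1% up. Of 7 tested with DTPA against 0 h, 4 fell and 1 rose, where 43.3% of 12016 genes changed, 27.6% down and 15.7% up. Itga2b, Gp5 and Pf4 passed these filters only through the 0 h library and so had to be lower at 24 h. The 0 h library has no replicate and was assumed to vary like the other groups. These comparisons share libraries, so their values are set side by side.

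**Figure D2:**
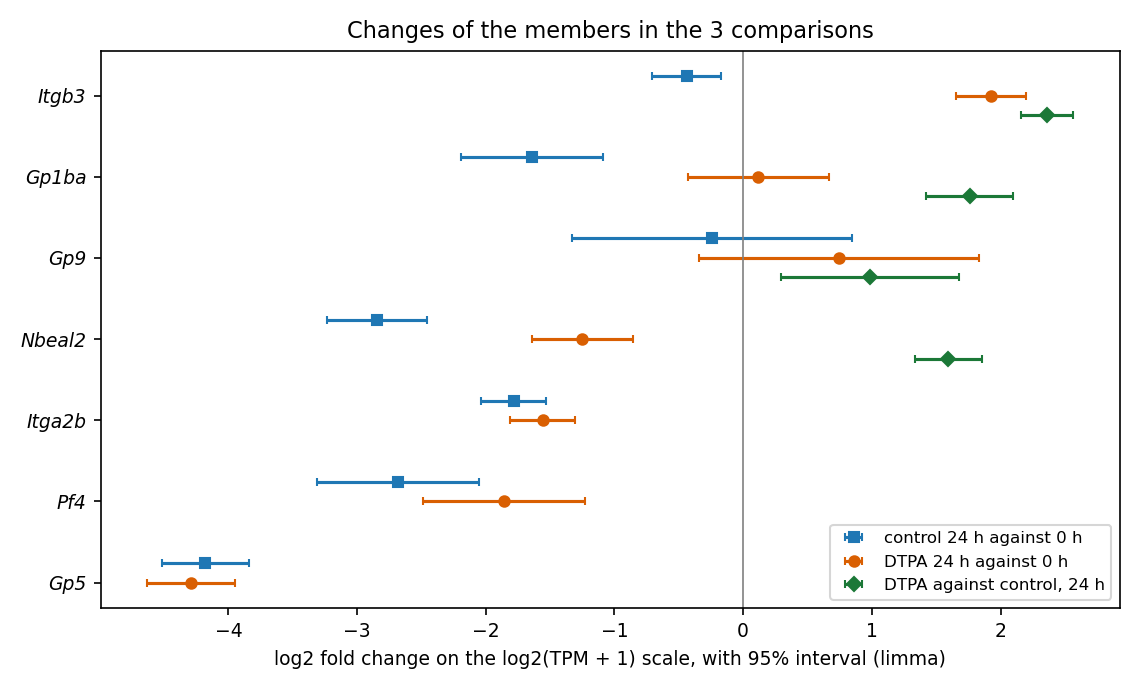
Log2 fold change (horizontal axis, log2(TPM + 1) scale) of the 7 detected members in the 3 comparisons, with 95% intervals from limma. Points right of the grey line are higher in the first-named group. Itgb3 with DTPA lay right of the line against both other groups, and Gp5 lay at -4.18 in the controls and -4.29 with DTPA against 0 h.

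The integrin chains parted. Itgb3 encodes the β3 chain, which pairs with αIIb in platelets and with αV in several other cells. Its gene occupies the plus strand of chromosome 11, from 104608000 to 104670476, in GRCm38, the assembly also called mm10. Its level was 3.3 TPM at 0 h. The controls were at 2.06, 2.06 and 2.41 TPM, and the DTPA libraries at 15.15, 14.76 and 16.13 TPM. The lowest DTPA library was thus far above every other library, and the controls all lay under the 0 h value. With 71 to 83 estimated reads in the controls and 593 to 684 with DTPA, the counting error was small beside the difference. Itgb3 was higher with DTPA than in the controls by 2.36 ± 0.0865 on the log2 scale (SE, from limma, with adjusted p = 6.35e-07), and its mean was 7.05-fold the control mean. Against 0 h it rose with DTPA by 1.93 ± 0.11 (adjusted p = 1.64e-05), higher in 3 of 3 libraries. In the controls its log2 fold change against 0 h was -0.44 (95% interval -0.71 to -0.17, adjusted p = 0.0118), under the 2-fold limit for a call.

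Itga2b encodes the αIIb chain, known as the surface marker CD41 of megakaryocytes and early progenitors. Its gene occupies the minus strand of chromosome 11, from 102453297 to 102470122. Its level was 4.75 TPM at 0 h, about 153 reads. Control values were 0.72, 0.63 and 0.66 TPM, and the DTPA libraries at 0.89, 1.05 and 0.92 TPM. These groups did not overlap, but they differed by only 1.42-fold in the mean, and all 6 libraries were far under the 0 h value. Itga2b was below the filter for DTPA against control. Its log2 difference was 0.23, and without a filter it did not pass (limma adjusted p = 0.091). It fell, with log2 differences from 0 h of -1.78 in the controls (limma adjusted p = 2.00e-05) and -1.56 with DTPA (adjusted p = 2.95e-05), as the filter required. Itgav, which encodes the αV partner of β3, was at 5.69 TPM at 0 h, 10.6 ± 0.427 TPM (SD, n = 3) in the controls and 10.6 ± 0.248 TPM with DTPA. Its log2 difference between DTPA and control was -0.00 (limma adjusted p = 0.993).

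The chains of the von Willebrand factor receptor also parted, most of all Gp1ba and Gp5, which were at similar levels at 0 h. Both promoters are shown because the genes differed so widely at 24 h with DTPA, and that of Nbeal2 is shown beside them because it took yet another course. The sequences are the 250 bases before the RefSeq start on GRCm38.p6, read 5′ to 3′ in the direction of the gene. Gp1ba is at chr11:70638872-70639121 on the plus strand, Gp5 at chr16:30310782-30311031 on the minus strand and Nbeal2 at chr9:110654162-110654411 on the minus strand. Capitals mark AGATAA or TGATAA, words bound by GATA factors, on either strand.
Gp1ba: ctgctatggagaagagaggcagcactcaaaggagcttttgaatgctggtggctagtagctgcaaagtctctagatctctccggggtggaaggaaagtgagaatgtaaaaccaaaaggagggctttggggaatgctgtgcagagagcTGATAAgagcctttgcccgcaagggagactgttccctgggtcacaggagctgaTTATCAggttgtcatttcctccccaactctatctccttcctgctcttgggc
Gp5: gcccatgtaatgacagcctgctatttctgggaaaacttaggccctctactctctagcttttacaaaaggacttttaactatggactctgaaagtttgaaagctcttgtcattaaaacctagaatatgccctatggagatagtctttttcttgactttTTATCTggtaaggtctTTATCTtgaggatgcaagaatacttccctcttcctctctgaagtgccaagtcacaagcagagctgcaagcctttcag
Nbeal2: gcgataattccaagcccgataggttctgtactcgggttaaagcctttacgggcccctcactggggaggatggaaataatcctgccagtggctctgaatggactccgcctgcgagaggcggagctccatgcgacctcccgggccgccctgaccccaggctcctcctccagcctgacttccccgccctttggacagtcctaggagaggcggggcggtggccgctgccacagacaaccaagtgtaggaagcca

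Gp1ba and Gp5 each held 2 such words, and the window of Nbeal2 held no exact match. Of all 32851 RefSeq promoters of the same length, 16.6% held at least 1. In Gp1ba the words lay 104 to 99 and 51 to 46 bases before the start, and in Gp5 93 to 88 and 77 to 72 bases before it. Of the 9 members, 7 had an entry in the RefSeq table, without Itgb3 and Vwf, and 2 of the 7 held AGATAA or TGATAA. The words AGGAAG or CGGAAG, which contain the core that ETS factors such as FLI1 bind, were in all 7 windows on either strand, against 39.2% of all promoters. The window of Itga2b lies almost wholly inside the gene as GENCODE M21 places it, so there it is not upstream sequence. The RUNX word TGTGGT was in 1, that of Gp9, against 14%. None of these words overlapped another in the members. The words were chosen with the members' values known, and a match is no measure of binding.

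Gp1ba encodes GPIbα, the chain that binds von Willebrand factor. The gene spans chromosome 11 from 70639122 to 70642036 on the plus strand. It was the most abundant member at 24 h. Its level was 24.22 TPM at 0 h. The controls were at 8.23, 5.42 and 7.87 TPM, and the DTPA libraries at 26.39, 23.99 and 28.99 TPM. The controls were all lower than the 0 h library, which lay inside the range of the DTPA libraries. Estimated reads were 389 at 0 h, 86 to 136 in the controls and 444 to 566 with DTPA. Gp1ba fell in the controls, with a log2 difference from 0 h of -1.64 (limma adjusted p = 0.000859) and was higher with DTPA than in the controls by 1.76 ± 0.144 (SE, adjusted p = 3.47e-05). Between DTPA and 0 h the log2 difference was 0.12, with a 95% interval of -0.43 to 0.67 (adjusted p = 0.644), so changes of less than about that size could not be told from none.

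Gp5 encodes glycoprotein V, a chain of the same complex that thrombin cleaves. Its gene occupies the minus strand of chromosome 16, from 30307685 to 30310779. Its level was 20.33 TPM at 0 h, about 264 reads. Control values were 0.07, 0.31 and 0.16 TPM, and the DTPA libraries at 0.07, 0.07 and 0.13 TPM. Each 24 h value stood for 1 to 4 reads, and the groups at 24 h overlapped. Gp5 fell, with log2 differences from 0 h of -4.18 in the controls (limma adjusted p = 2.67e-06) and -4.29 with DTPA (adjusted p = 1.83e-06), as the filter required. The exact permutation test of DTPA against control gave p = 0.4, and at this depth no difference between them was detectable.

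Gp9 encodes glycoprotein IX, a small chain that the complex needs to reach the cell surface. The gene spans chromosome 6 from 87778072 to 87779768 on the plus strand. Its level was 1.34 TPM at 0 h. The controls were at 1.49, 0.97 and 0.58 TPM, and the DTPA libraries at 2.61, 1.83 and 4.9 TPM. The highest control lay close under the lowest DTPA library, and DTPA replicate 3 was well above the other two. The gene is short, so 1 read was worth 0.158 to 0.195 TPM, and the estimated reads were 3 to 8 in the controls and 11 to 31 with DTPA. Gp9 was higher with DTPA by 0.99 ± 0.296 on the log2 scale (SE, from limma, with adjusted p = 0.0226). The call was lost without control replicate 2 (adjusted p = 0.0531) or 3 (0.0713), without DTPA replicate 3 (0.0586) and without a filter (0.061). Against 0 h it did not pass in either comparison, with log2 differences of -0.24 in the controls (95% interval -1.33 to 0.85) and 0.74 with DTPA (-0.34 to 1.83).

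Gp1bb encodes GPIbβ, the chain that is linked to GPIbα. Its gene occupies the minus strand of chromosome 16, from 18620317 to 18622403, and was listed at 0 in all 7 libraries. Of its 2087 bp of exon, 91.1% (1902 bp) is also exon of Sept5 and 867 bp of Gm49601, both on the same strand and both also listed at 0. The sources used here do not say how reads in shared exons were counted. The value of 0 therefore says little about this transcript.

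Among the granule members, Pf4 was low and Vwf was listed at 0, whereas Nbeal2 was well detected. Nbeal2 encodes a BEACH-domain protein that megakaryocytes need to form alpha granules, and its loss causes gray platelet syndrome. Its gene occupies the minus strand of chromosome 9, from 110624789 to 110654161. Its level was 32.82 TPM at 0 h, the highest of the members there. Control values were 3.74, 3.88 and 3.51 TPM, and the DTPA libraries at 11.17, 13.96 and 14.82 TPM. DTPA libraries thus lay between the controls and the 0 h library without overlap. Nbeal2 had the most reads of the members, with 1854 at 0 h, 196 to 217 in the controls and 744 to 1017 with DTPA. It fell in the controls, with a log2 difference from 0 h of -2.84 (limma adjusted p = 1.82e-05) and was higher with DTPA than in the controls by 1.60 ± 0.112 (SE, adjusted p = 1.57e-05). The DTPA mean was 40.6% of the 0 h value. Against 0 h, Nbeal2 fell with DTPA (log2 difference -1.25, adjusted p = 0.000575), a change that missed the 2-fold limit with median-of-ratios scaling (-0.99) and quantile normalization (-0.94).

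Nradd, the nearest protein-coding gene to Nbeal2 at lower coordinates, begins 336 bp beyond its 3′ end on the same strand. It was at 2.79 TPM at 0 h, 0.493 ± 0.127 TPM (SD, n = 3) in the controls and 2.33 ± 0.739 TPM with DTPA. It passed the filter only through its DTPA libraries and so had to be higher with DTPA. Its rise was 1.14 on the log2 scale (limma adjusted p = 0.00249). The order of its 3 group levels was that of Nbeal2. Ccdc12, the nearest on the other side, was at 72.8 TPM at 0 h, 54.7 ± 4.27 TPM in the controls and 63.9 ± 4.72 TPM with DTPA.

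Pf4 encodes platelet factor 4, a chemokine released from alpha granules. The gene spans chromosome 5 from 90772435 to 90773383 on the plus strand. Its level was 5.87 TPM at 0 h, about 25 reads. The controls were at 0.23, 0 and 0 TPM, and the DTPA libraries at 1.39, 0.81 and 0.58 TPM. The groups did not overlap, but the values stand for 1, 0 and 0 reads against 7, 4 and 3 reads. Pf4 was below the filter for DTPA against control. Its log2 difference there was 0.82, which passed only when no filter was set (limma adjusted p = 0.0139). It fell, with log2 differences from 0 h of -2.68 in the controls (limma adjusted p = 0.000171) and -1.86 with DTPA (adjusted p = 0.000825), as the filter required.

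Vwf encodes von Willebrand factor, stored by megakaryocytes and endothelial cells. The gene spans chromosome 6 from 125546774 to 125686679 on the plus strand, with 16064 bp of exon, and was listed at 0 in all 7 libraries. With that length, 1 read would have been worth 0.00867 to 0.0107 TPM, so a single read would have been listed as 0.01 TPM. Its neighbours Cd9, a surface protein of platelets, and Ano2 were also listed at 0 throughout.

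The order of the levels changed with the group. At 0 h it ran from Nbeal2 through Gp1ba, Gp5, Pf4, Itga2b and Itgb3 to Gp9, with 1 library and so no spread. In the controls Gp1ba was highest, followed by Nbeal2 and Itgb3 with no overlap between neighbours. Gp9 overlapped Itga2b below them, and Gp5 overlapped Pf4. With DTPA, Gp1ba was again highest, Itgb3 and Nbeal2 overlapped in second place, Gp9 followed, and Itga2b overlapped Pf4 above Gp5. Summed over the 9 members, the level was 92.6 TPM at 0 h, 13.3 to 16.5 TPM in the controls and 56.5 to 66.5 TPM with DTPA.

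Other platelet receptors were absent or low, and all but P2ry1 and P2rx1 stayed under 1 TPM in every library. Of 18 listed, 8 were at 0 in every library, among them Gp6, a collagen receptor gene, Clec1b, Itga2, P2ry12, Cd9, Pear1 and Tbxa2r. The ADP receptor gene P2ry1 and the ATP-gated channel gene P2rx1 were the only 2 tested for DTPA against control. Both rose, where 21.7% of all genes tested rose and 36.4% fell. P2ry1 was at 22.36 TPM at 0 h, at 0.69, 0.88 and 0.68 TPM in the controls and at 2.37, 2.4 and 2.14 TPM with DTPA (limma adjusted p = 0.00107). P2rx1 was at 4.19 TPM at 0 h, at 0.88, 0.26 and 1.11 TPM in the controls and at 3.39, 2.91 and 3.71 TPM with DTPA (adjusted p = 0.00123). P2ry1 was under 1 TPM in every control and passed the filter only through its DTPA libraries, so it had to be higher with DTPA. P2rx1 would have passed through its DTPA libraries alone, and it was the closer of the 2 to its 0 h level. Both are named after their values were seen. With any 1 DTPA library left out, P2ry1 was below the filter and P2rx1 still rose.

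Transcription factors of the shared erythroid and megakaryocytic program moved both ways. Of 25 listed, 19 were tested for DTPA against control, and 8 rose, 6 fell and 5 did not pass, where 21.7% of all genes tested rose and 36.4% fell. The median log2 fold change was 0.05, against -0.09 over all genes tested. With median-of-ratios scaling 9 rose and 5 fell, beside 3189 and 3186 of all genes. Fli1, an ETS factor of megakaryocytes, rose with DTPA. It was at 10.87 TPM at 0 h, the controls averaged 25.8 ± 2.62 TPM (SD, n = 3) and the DTPA libraries 51.5 ± 0.872 TPM (limma adjusted p = 2.05e-05). Gfi1b, a repressor used in both lineages, rose by 1.07 on the log2 scale, whereas Gata1 (log2 difference -1.28) and Tal1, a partner of GATA factors (-0.84), fell. These cells lack native GATA1 and carry the fusion, so reads of Gata1 may be mostly those of the transgene. The values do not separate them, so the fall is not a measure of the native gene. Klf1, a factor that favours the red cell lineage, was at 814 TPM in the controls and 838 TPM with DTPA (limma adjusted p = 0.635), a gene named after its values were seen.

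Integrin signalling genes gave 6 rises, 2 falls and 4 that did not pass among 12 tested of 18, with a median of 0.21, where 21.7% of all genes tested rose and 36.4% fell. With median-of-ratios scaling 8 rose, with quantile normalization 9, and 2 fell under both. Fyb, an adapter protein that links receptors to integrin activation, rose with DTPA by 2.40 on the log2 scale. It was at 36.71 TPM at 0 h, the controls averaged 10.6 ± 0.881 TPM (SD, n = 3) and the DTPA libraries 60.1 ± 2.92 TPM (limma adjusted p = 2.39e-07). The adapter genes Skap2 and Apbb1ip rose by 0.57 and 0.53, and the integrin-linked kinase gene Ilk fell (-0.52). Of 23 granule genes, 11 were tested, and 6 rose, 1 fell and 4 did not pass, with a median of 0.30, against the same shares of all genes (21.7% and 36.4%). Without DTPA replicate 3, 4 rose and 2 fell, and with median-of-ratios scaling 8 rose and 1 fell. Srgn, the core protein of the granule proteoglycan serglycin, was at 11.25 TPM at 0 h, 35.2 ± 0.767 TPM (SD, n = 3) in the controls and 235 ± 8.86 TPM with DTPA, where it rose (limma adjusted p = 4.21e-08). Unc13d, which primes granules for release, and Tgfb1, a cytokine stored in platelets, rose by 1.25 and 1.06, and Vamp8, a release protein, fell (-0.50). The 9 granule genes at 0 in every library included Ppbp, the neighbour of Pf4, and Thbs1, F5 and F13a1.

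Cytoskeletal genes used in platelet shedding gave 7 rises, 5 falls and 2 that did not pass among 14 tested of 18, with a median of 0.14, where 21.7% of all genes tested rose and 36.4% fell. The number that rose was 5 when replicate 2 or 3 of either group was left out, and 9 with quantile normalization. The focal adhesion gene Zyx rose by 1.14, the tropomyosin gene Tpm1 by 0.60 and the actin regulator gene Was by 0.59, while the adhesion gene Vcl fell (-0.60). The plot of related gene lists shows the spread within each list.

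**Figure D3:**
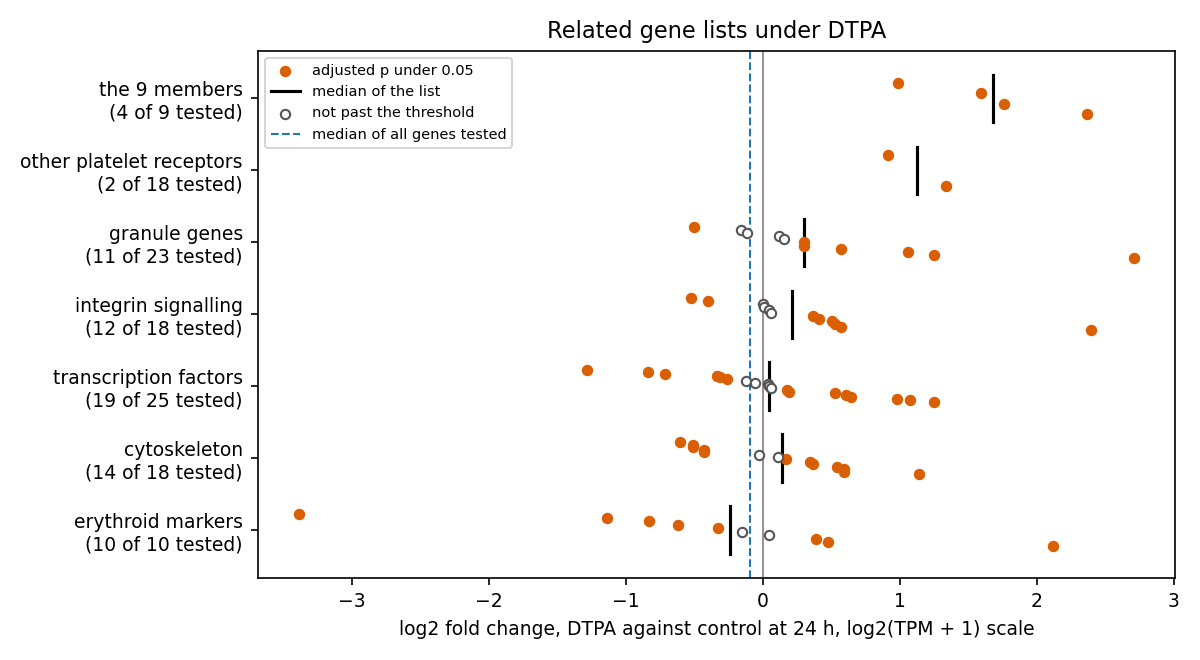
Log2 fold change with DTPA against control at 24 h (horizontal axis, log2(TPM + 1) scale) for each tested gene of 7 lists (rows, with the number tested of those listed). Filled points passed the limma threshold, open points did not, short black lines are list medians and the dashed line is the median of all genes tested, -0.09. The 4 tested members lay at 0.99 to 2.36, and the transcription factors lay on both sides of 0.

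Markers of other cells that can carry β3 integrin or platelet proteins were read in the same libraries. Of 7 endothelial markers, Cdh5, Tie1 and Emcn were at 0 throughout, and the list summed to at most 0.17 TPM in any library. The 6 mast cell and basophil markers summed to 9.63 TPM at 0 h, 0.32 to 0.7 TPM in the controls and 2.27 to 3.01 TPM with DTPA. Itga2b, Nbeal2 and Pf4 had the same order of group levels, and the other detected members did not. Mcpt8 and Prss34 were at 0 throughout, Cpa3 was at 0 at 24 h and Hdc gave nearly all of the level at 24 h. The 3 osteoclast markers summed to 16.5 TPM at 0 h, 63.7 to 72 TPM in the controls and 116 to 123 TPM with DTPA, nearly all of it Acp5, with Ocstamp at 0. Of 6 myeloid markers, Mpo, Itgam and Ly6g were at 0, and the list summed to 7.16 TPM at 0 h, 3.09 to 3.19 TPM in the controls and 1.23 to 2.79 TPM with DTPA. The 5 lymphoid markers summed to 0.21, 0.23 to 1.06 and 2.56 to 2.82 TPM in the same order, with Cd3e and Il7r at 0 and Cd79a giving all of it at 24 h. The part of other cells in the members' values was not tested.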

How the data were processed

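Messenger RNA libraries were made with a stranded TruSeq kit, per the labels' protocols. Per the submitters' processing notes, the tools were Trimmomatic 0.33, FastQC, HISAT2 2.1.0, featureCounts and edgeR, with mm10. Annotation release, strand setting and gene lengths: not given in the sources used here. Each deposited file holds TPM of 1 library, which the authors scaled to a common total. TPM fall for all genes when a few abundant ones rise.

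Of 55487 rows, 120 were merged into a row with the same symbol by summing. Depth was estimated as the step that makes low TPM, times GENCODE M21 exon length, whole reads; 99.2% to 99.5% of those values lay within 0.1 of a whole number. The files use some symbols newer than M21 (Septin5 for Sept5), so lengths may differ for some genes.

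Tests ran in limma (version 3.58.1, R 4.3.3), two-sided and with a variance trend. They used log2(TPM + 1), which understates changes of low genes. The fits were tested on simulated data in which few genes changed, so that test does not cover changes as widespread as those here. DTPA was compared with control in 6 libraries, and each with 0 h in a fit of all 7. Exact permutation tests were two-sided. Alternatives were pseudocounts, filters, scalings, no variance trend, a replicate block, other libraries in the fit and leaving out each replicate. Named genes are all members, up to 4 called genes of each list with the largest change and at least 5 TPM in a group, the nearest neighbours, and the 3 genes most like each member that reached 5 TPM. The members and lists were chosen with earlier results of these data known.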

Additional observations from a re-analysis of the deposited data

How the results depend on the processing

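With DTPA against control, Itgb3, Gp1ba and Nbeal2 rose under every alternative run, and 3 or 4 members were called throughout. A pseudocount of 5 TPM lowered the log2 fold change of Itgb3 to 1.503 and that of Gp9 to 0.42. Against 0 h, a pseudocount of 5 TPM lowered the number of members that fell with DTPA from 4 to 2, since Itga2b (-0.71) and Pf4 (-0.88) then missed 2-fold, and Itga2b (-0.78) also missed it in the controls. Without the 2-fold limit, 3675 genes were higher and 5188 lower in the controls, 3598 higher and 5594 lower with DTPA, and Itgb3 counted among those that fell in the controls. Scaling moved the median change over all tested genes (log2) from -0.30 to -0.04 (median-of-ratios) and -0.03 (quantile) for DTPA against 0 h, from -0.22 to -0.07 and -0.03 for control against 0 h, and from -0.09 to 0.01 under both for DTPA against control. The log2 fold change of Itgb3 in the controls against 0 h shrank from -0.44 to -0.32 (median-of-ratios) and -0.14 (quantile), so its fall there depended on scaling.

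The replicate numbers did not pair the libraries: deviations of same-numbered control and DTPA libraries correlated at -0.0103, 0.0242 and -0.00964 across genes, and not every library correlated best with its own number. With the replicate number as a block, 4 members were called higher, as without it, and 2274 genes were higher and 3888 lower. Of the cytoskeletal genes, 5 rose with the block, against 7 without it. Depth limits Gp9, Pf4, Gp5 and Itga2b at 24 h, where 0 to 39 estimated reads stood behind a value.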

Other observations

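The genes whose levels ran most like those of the members were taken from 8499 named genes that reached 5 TPM in a group, by Pearson correlation of log2(TPM + 1) over the 7 libraries. The libraries fall into 3 groups, so the correlation mostly follows 3 levels, and it is given as a description. For Itgb3 they were Pkp2, a desmosome gene, Ptpre, a tyrosine phosphatase gene, and Abcc1, a drug efflux transporter gene, each with r = 0.998. Ptpre was at 25.2 TPM at 0 h, 19.1 ± 1.24 TPM (SD, n = 3) in the controls and 61.5 ± 1.78 TPM with DTPA. For Gp1ba they were Wdr41, Eif4g3 and Spopl, with r of 0.995 to 0.991. Eif4g3 was at 31.7 TPM at 0 h, 18.6 ± 0.656 TPM in the controls and 33.9 ± 1.91 TPM with DTPA.

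For Gp5 they were Ddx18, an RNA helicase gene, Twnk, the mitochondrial DNA helicase gene, and Zcchc3. Ddx18 was at 340 TPM at 0 h, 44.3 ± 1.98 TPM in the controls and 42.1 ± 0.154 TPM with DTPA. For Nbeal2 they were Trp53, Ldb1 and Ppp2r3d, and Ldb1, which bridges GATA1 complexes, was at 224 TPM at 0 h, 99.8 ± 4.02 TPM in the controls and 152 ± 8.7 TPM with DTPA. For Pf4 they were Rpl22, Eif3m and Nthl1. No gene was among the 3 most alike of more than 1 member.

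Of the 18 nearest protein-coding neighbours of the members, 6 were tested for DTPA against control. Slc25a11, next to Gp1ba, was at 178 ± 7.92 TPM in the controls and 248 ± 17.9 TPM with DTPA. Atp13a3, 1643 bp from Gp5, was at 105 TPM at 0 h, 43.3 ± 2.65 TPM in the controls and 39.6 ± 1.05 TPM with DTPA. Gpatch8, next to Itga2b, was at 37 TPM at 0 h, 60.4 ± 3.09 TPM in the controls and 52 ± 2.6 TPM with DTPA, against the fall of Itga2b from 4.75 TPM to under 1.1 TPM. Rab43, next to Gp9, was at 1.30 ± 0.142 TPM in the controls and 2.34 ± 0.515 TPM with DTPA.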
